A study of Arabidopsis thaliana with 12 samples.

Results

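Transcripts of 5 enzymes of carbon metabolism were followed in wild-type Arabidopsis thaliana of the ecotype Wassilevskija: phosphoribulokinase (PRK, AT1G32060), sedoheptulose bisphosphatase (SBPASE, AT3G55800), the NADP-dependent malate dehydrogenase of the chloroplast (AT5G58330), a sucrose-phosphate synthase (ATSPS4F, AT4G10120) and a kinase of the pfkB type (AT1G06730). They are 5 of the 691 genes that had a probe annotated to no other gene, on an array of 3439 probes. The plants were kept for 6 h in MS medium (a mineral salt mixture for plant culture) with 60 mM sucrose, or in water for a time that the labels do not give, with 6 samples in each group. All samples are of 1 genotype. The labels name whole plants, and give neither an organ nor the plant age. The labels do not say whether the samples came from separate plants, so their spread may be technical. Medium and sugar were added together, so their parts in a difference cannot be told apart. Each of the 5 genes had 1 such probe and lay on no probe shared with other genes. They were grouped by function, but were chosen from earlier results of this same comparison, in which AT1G06730 had been listed for its large difference. The values of the 5 genes are therefore given as a description, with their errors and with no test. RNA came from mixtures of cells, in which fewer cells of a type and less RNA per cell cannot be told apart.

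The Calvin cycle fixes carbon dioxide in the chloroplast stroma. Sedoheptulose bisphosphatase acts in the branch that regenerates its acceptor, and phosphoribulokinase makes the acceptor, ribulose bisphosphate, in the last step. Light switches both enzymes on through thioredoxins, small proteins that reduce disulfides in their targets and take electrons from photosynthesis through ferredoxin-thioredoxin reductase. The NADP-dependent malate dehydrogenase is a further thioredoxin target. It turns oxaloacetate into malate when NADPH is in excess, and the malate carries reducing power out of the chloroplast, a route known as the malate valve. Sucrose-phosphate synthase makes the phosphorylated precursor of sucrose in the cytosol. Kinases of the pfkB type include fructokinases, ribokinases and adenosine kinases, together with plastid proteins that have other roles.

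The typical probe was brighter after MS with sucrose in deposited intensity, which is in arbitrary units. Array medians were 0.309 to 0.339 after MS with sucrose and 0.171 to 0.188 in water, and the 6 same-numbered pairs of samples had ratios of medians of 1.80 to 1.90. The ratio was not even across the array: probes of decile 10, the brightest, had a median ratio of 1.06, those of decile 9 of 1.46, and those of decile 6 of 1.84. An intensity of exactly 0 was listed for 13.6% of all values. Intensities below are as deposited, and log2 differences are taken after quantile normalization, which gives the samples a common distribution, with an offset of 0.0718 added before the logarithm. Such a difference is relative to the rest of the array, and it understates the change of a dim probe.

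PRK was brighter in every sample given MS with sucrose than in any water sample. Its intensity was 3.35 at the lowest, 3.61 at the median and 4.13 at the highest after MS with sucrose, and 1.55, 1.75 and 2.46 in water. The groups did not overlap. The means were 3.64 ± 0.297 with sucrose and 1.93 ± 0.409 in water (SD, n = 6 each), a ratio of 1.89, which is within the range of the ratios of array medians but above the 1.06 of the brightest decile, to which the PRK probe belongs. The normalized log2 difference was 0.80 (SE 0.10), and again the groups did not overlap. Water samples 5 and 6 stood above the other 4 water samples, at 2.46 and 2.44 against 1.55 to 1.76, while samples 5 and 6 with sucrose, at 3.49 and 3.37, lay inside the range of their group. The ratio within same-numbered pairs was accordingly 1.42 and 1.38 for numbers 5 and 6, against 2.11 to 2.53 for the other 4 numbers. Without numbers 5 and 6 of both groups the normalized difference was 1.004 (SE 0.08).

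SBPASE, whose enzyme acts upstream of phosphoribulokinase in the same regeneration branch, gave almost no signal on its probe. It was listed at 0 in 11 of the 12 samples, and sample 1 with sucrose held the single value above 0, at 0.0599, which is under the offset. No fold can be given. Whether the annotation places SBPASE on the right spot could not be checked, so these zeros may not speak of its transcript. Without a usable level for SBPASE, the Calvin cycle is represented by PRK alone: of 25 genes of the cycle and its regulators looked for, PRK and SBPASE were the 2 with a probe of their own.

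**Figure D1:**
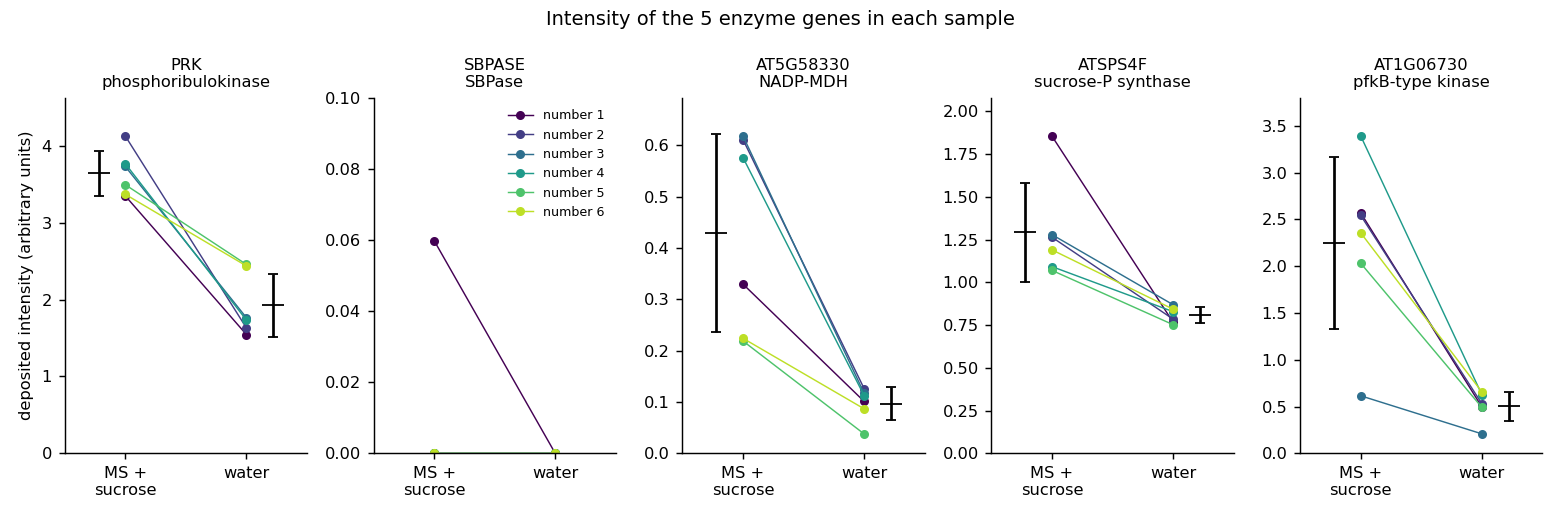
Deposited intensity (arbitrary units, linear axes from 0) of the 5 genes in the 6 samples given MS with sucrose and the 6 in water, with lines joining samples of the same number and, except for SBPASE, black marks for mean and SD. PRK, AT5G58330 and ATSPS4F show groups that do not overlap; sample 3 with sucrose of AT1G06730, at 0.616, lies inside the range of the water samples, and SBPASE is at 0 in 11 of 12 samples.

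AT5G58330, for the malate valve enzyme, was dim in water and brighter in each sample with sucrose. Its intensity after MS with sucrose was 0.219 at the lowest, 0.453 at the median and 0.618 at the highest, against 0.0379, 0.107 and 0.126 in water. On the deposited scale the groups did not overlap. The means were 0.430 ± 0.193 with sucrose and 0.0969 ± 0.0320 in water (SD, n = 6 each), a ratio of 4.43, while the probes of decile 6, where this probe lies, had a median ratio of 1.84. The log2 ratio of the means was 2.15, the log2 difference with the offset and no normalization was 1.498, and the normalized log2 difference was 0.93 (SE 0.29). On the normalized scale the lowest sample with sucrose, at -2.12, was under the highest water sample, at -2.00. Sample 5 was the lowest of both groups, at 0.219 with sucrose and 0.0379 in water, and sample 6 was next to it in both, at 0.224 and 0.0868. Within same-numbered pairs the gene was brighter with sucrose in 6 of 6, with ratios from 2.58 in number 6 to 5.78 in number 5. The water value of number 5 is under the offset of 0.0718, so its ratio rests on a very low value. Normalized pair differences ran from 0.36 in number 6 to 1.25 in number 3, with number 5 at 0.97.

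The malate valve and thioredoxin list held 22 genes. Besides AT5G58330, 2 of them had a probe of their own, and both belong to the thioredoxin supply. AT2G04700, for the catalytic subunit of ferredoxin-thioredoxin reductase, fell. Its intensity was 0.0424 at the lowest, 0.217 at the median and 0.233 at the highest after MS with sucrose, and 0.270, 0.326 and 0.351 in water, with no overlap. The normalized difference was -1.32 (SE 0.22), with an adjusted p of 0.000774 by limma after Benjamini-Hochberg adjustment over all probes, on an array where 19.3% of probes were called lower. Sample 5 with sucrose, at 0.0424, was far below the other 5, at 0.154 to 0.233; without it the difference was -1.10. With adjacent sample numbers averaged and paired by a replicate block, the adjusted p by limma was 0.0623. NTRC, a plastid NADPH-dependent thioredoxin reductase, had intensities of 0.191 to 0.409 with sucrose and 0.106 to 0.163 in water. Those groups did not overlap either, but the normalized difference of NTRC, 0.30 (SE 0.16), did not pass (adjusted p = 0.151 by limma). Without sample 4 with sucrose, NTRC was at 0.40 and passed (adjusted p = 0.0480 by limma). With any other single sample left out it did not pass (adjusted p of 0.0921 to 0.269 by limma). Nor did it pass without number 4 of both groups (adjusted p = 0.0905 by limma).

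ATSPS4F, for an enzyme that makes the precursor of sucrose, was modestly brighter with sucrose on the deposited scale. Its intensity was 1.07 at the lowest, 1.23 at the median and 1.86 at the highest after MS with sucrose, against 0.753, 0.807 and 0.869 in water. The groups did not overlap. The means were 1.29 ± 0.289 with sucrose and 0.808 ± 0.0462 in water (SD, n = 6 each), a ratio of 1.60, which is below the 1.80 to 1.90 of the array medians and near the 1.46 of decile 9, where the ATSPS4F probe lies. After normalization the difference was 0.22 (SE 0.13) and the groups overlapped. Sample 1 with sucrose, at 1.86, stood above the other 5, which reached 1.28 at most, and without it the difference was 0.11. Left out in both groups, number 1 took the difference to 0.09 (SE 0.08). Of the 27 genes listed for sucrose synthesis, cleavage and transport, ATSPS4F was the 1 with a probe of its own, and none of 14 starch genes had one.

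AT1G06730, a pfkB-type kinase, had a ratio of means close to that of AT5G58330 and, on the log2 scale, the widest spread of the 4 genes with a measured level. Its intensity was 0.616 at the lowest, 2.45 at the median and 3.39 at the highest after MS with sucrose, and 0.209, 0.514 and 0.658 in water. The 5 samples with sucrose other than sample 3, at 2.03 to 3.39, were above all water samples. The means were 2.25 ± 0.919 with sucrose and 0.502 ± 0.159 in water (SD, n = 6 each), a ratio of 4.48. Probes of decile 10, where this probe lies, had a median ratio of 1.06, against 1.84 for decile 6, where AT5G58330 lies. The normalized difference of AT1G06730 was 1.54 (SE 0.39). Sample 3 was the lowest of both groups, at 0.616 with sucrose and 0.209 in water, so its own ratio of 2.95 had the same direction as the ratios of 3.59 to 5.41 in the other 5 pairs. Without number 3 of both groups the difference was 1.74 and its SE 0.14.

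Of the 19 pfkB-type kinases listed, 2 besides AT1G06730 had a probe of their own, and neither passed. AT1G17160, a plastid ribokinase, averaged 2.15 ± 0.156 with sucrose and 2.12 ± 0.235 in water (SD, n = 6 each), with a normalized difference of -0.15 (SE 0.08, adjusted p = 0.163 by limma). AT1G50390 averaged 0.982 ± 0.153 with sucrose and 0.738 ± 0.0765 in water (SD, n = 6 each), with a normalized difference of -0.07 (SE 0.13, adjusted p = 0.701 by limma). Of the 4 pathway genes outside the 5 enzymes, therefore, 0 were called higher by limma (0 also at an unadjusted p under 0.05), on an array where 18.1% of probes were, and 1 was called lower. Their median difference was -0.11, beside 0.00 for all 3439 probes. In all, 102 further genes of these pathways were looked for, and 4 had a probe of their own. Calls among them turned with the scaling: NTRC passed on the deposited scale at 0.94 (adjusted p = 0.000416 by limma), AT1G17160 under median centring at -0.65 (adjusted p = 3.7e-05 by limma), and AT1G50390 in opposite directions, at 0.37 on the deposited scale (limma, adjusted p = 0.00913) but -0.30 once arrays were centred (limma, adjusted p = 0.0493).

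**Figure D2:**
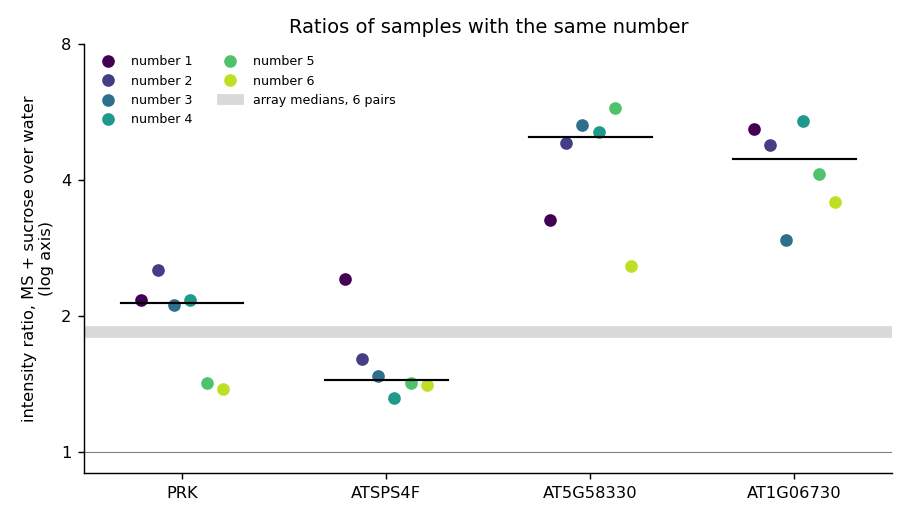
Ratio of deposited intensity, MS with sucrose over water (log axis), in each of the 6 pairs of samples with the same number, for the 4 genes with a level; black lines are medians and the grey band spans the ratios of array medians, 1.80 to 1.90. All 6 points of AT5G58330 and AT1G06730 lie above the band, PRK has 4 above and 2 below, and ATSPS4F has 1 above and 5 below.

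Set side by side on the deposited scale, AT5G58330 and AT1G06730 had median same-number ratios of 4.98 and 4.46, and all of their ratios were above 1.90. PRK had a median ratio of 2.14 and ATSPS4F of 1.45, with values on both sides of the ratios of array medians. Of the 5 genes, 3 had groups with no overlap on the deposited scale and were higher with sucrose, as did 29.5% of all probes. After normalization that held for PRK alone, and for 10.3% of all probes. The direction and separation of these genes were known when they were chosen, so nothing is read from these counts. By normalized difference among the 691 genes, AT1G06730 stood at rank 9 from the top, AT5G58330 at 39, PRK at 59 and ATSPS4F at 244. AT1G06730 and AT5G58330, at 1.54 (SE 0.39) and 0.93 (SE 0.29), were no further apart than the sum of their errors. With the sample number as a replicate block, which pairs the samples, the SEs were 0.19 and 0.15. The gap between these genes was then larger than the sum of those SEs. However, the probe of AT5G58330 was dim in water and near the offset. With a larger offset of 0.1429 its difference was 0.74, and that of AT1G06730 was 1.45. Ranks without an offset were not computed. On the deposited scale the ratios of means were 4.48 for AT1G06730 and 4.43 for AT5G58330. The median ratios of their deciles were unlike, at 1.06 and 1.84. Without the block, AT5G58330 and PRK, at 0.93 and 0.80 (SE 0.10), differed by less than the SE of AT5G58330, and with the block, at SEs of 0.15 and 0.12, by less than their sum. PRK and ATSPS4F, at 0.80 and 0.22, were further apart than the sum of their errors, 0.10 and 0.13. On the deposited scale, relative to the median of all probes, they were at 0.53 and 0.23. A sum of errors is not the error of a gap between genes measured on the same samples. These comparisons are therefore a description of chosen genes, and no gap between them was tested.

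Within a group, the genes varied by sample number, and each in its own way. On the normalized log2 scale, AT1G06730 in sample 3 was 1.80 below its group mean with sucrose and 0.85 below it in water. AT5G58330 in sample 5 was 0.71 below with sucrose and 0.75 below in water. For PRK the 2 groups did not follow each other: samples 5 and 6 were 0.08 and 0.18 below the mean with sucrose, but 0.28 and 0.25 above it in water. ATSPS4F varied little in water, with an SD of 0.09, and more with sucrose, with an SD of 0.31. Taking the sample number as a replicate block, the SE became 0.15 for AT5G58330 (0.29 without the block) and 0.19 for AT1G06730 (0.39 without it). For PRK it was 0.12 and for ATSPS4F 0.12. With adjacent numbers averaged and no block, the SE was larger for AT5G58330, at 0.38, and smaller for AT1G06730, at 0.25. It was 0.15 for PRK (0.10 on the 12 samples) and 0.15 for ATSPS4F (0.13 on the 12 samples). Pairwise Pearson correlations of these deviations between the 4 genes, over 12 samples that share arrays and sample numbers, lay between -0.23 and 0.27.

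**Figure D3:**
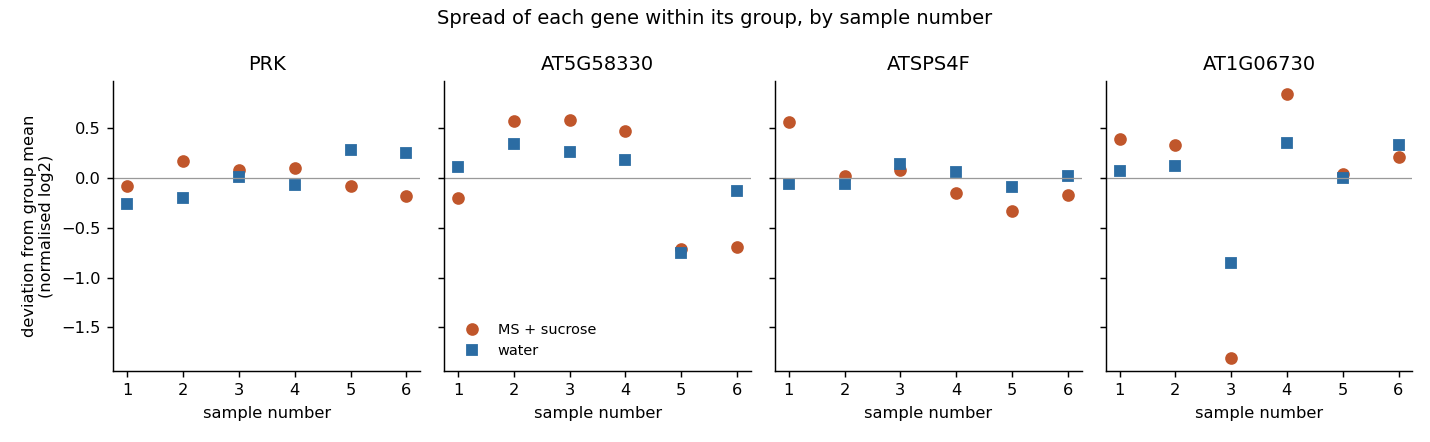
Deviation of each sample from the mean of its own group (normalized log2 scale), by sample number, for the 4 genes with a level; circles are MS with sucrose and squares water. Sample 3 of AT1G06730 and sample 5 of AT5G58330 are low in both groups, and samples 5 and 6 of PRK are high in water only.

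The genes whose deviations were most like those of each enzyme were looked up among 573 others with a probe of their own that were above 0 in at least 10 samples. The measure was Pearson's r over the 12 deviations from the group means, which leaves the difference between the groups out, and it is given as a description. For PRK they were AT5G66090 (r = 0.86), AT2G46220 (r = 0.86) and AT2G22890 (r = 0.84). For AT5G58330 they were AT1G12100 (r = 0.92), AT3G29410 (r = 0.90) and AT1G73430 (r = 0.89), and these values stayed between 0.89 and 0.91 without number 5, the number farthest from the mean. For ATSPS4F they were AGL26 (r = 0.91), AT1G13990 (r = 0.84) and AT4G22370 (r = 0.84), with r of 0.71 to 0.75 without number 1. For AT1G06730 they were AT2G25870 (r = 0.83), AT4G32060 (r = 0.78) and AT5G27860 (r = 0.77). Without number 3, these last values were 0.58, 0.29 and -0.14, and over all 12 samples Spearman's rho was 0.66, 0.75 and 0.38.

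How far each gene stood from no difference depended on the scaling. The median of all probes was at 0.38 on the deposited scale and at -0.29 under median centring of the arrays, against 0.00 after quantile normalization. AT1G06730 was at 1.93 on the deposited scale, 1.61 with cyclic loess and 1.26 under median centring, and AT5G58330 at 1.498, 0.83 and 0.83. PRK was at 0.91, 0.84 and 0.24. ATSPS4F was at 0.61, 0.29 and -0.06, so its sign depended on the scaling. Taken relative to the median of all probes, which removes the shift of that median, AT1G06730 was at 1.55, AT5G58330 at 1.115, PRK at 0.53 and ATSPS4F at 0.23. These values are the same on the deposited and centred scales by construction, because centring moves all probes of an array alike. They leave in the unevenness across the array. Median ratios of deposited intensity were 1.06 in decile 10, which holds PRK and AT1G06730, 1.46 in decile 9 with ATSPS4F and 1.84 in decile 6 with AT5G58330. AT2G04700 was lower under all 4 scalings, from -1.38 with cyclic loess to -0.70 on the deposited scale, and passed in each (adjusted p of 0.000265 to 0.0210 by limma).

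**Figure D4:**
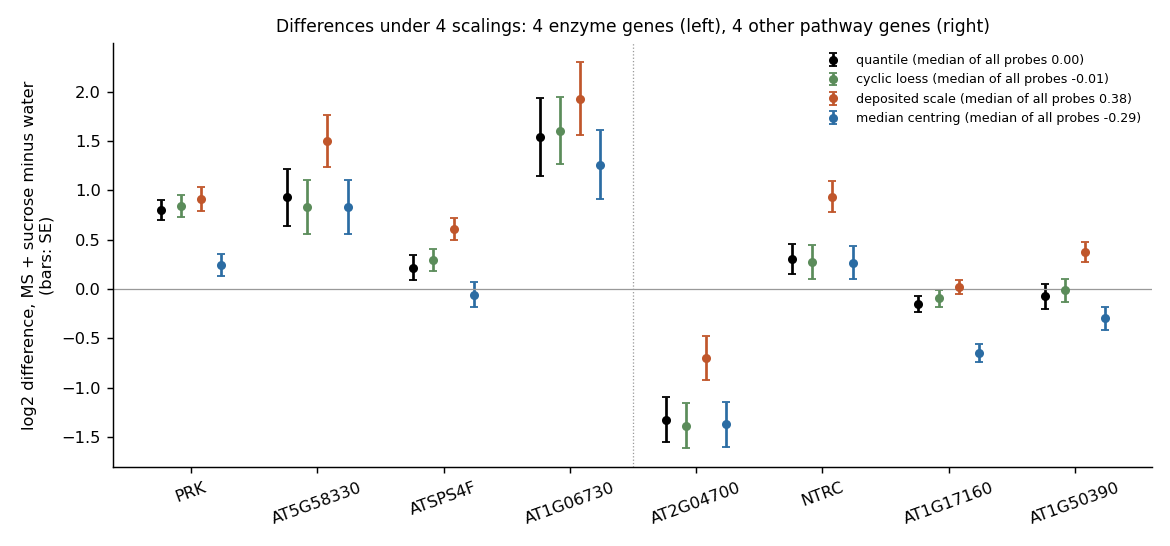
Log2 difference, MS with sucrose minus water, with its SE, under 4 scalings for the 4 enzyme genes with a level (left of the dotted line) and the 4 other pathway genes (right); the legend gives the median of all probes under each scaling. AT1G06730 and AT5G58330 are above 0 and AT2G04700 below 0 under all 4, while ATSPS4F runs from -0.06 to 0.61.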

How the data were processed

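The deposited table holds 1 linear spot intensity per probe and sample, from 0 to a common ceiling; neither the array type nor the background correction and scaling used by the authors is stated in the labels. The number of arrays limits the precision. Probes were named from the platform annotation, updated to TAIR10.1 symbols: 692 had 1 gene, 870 several (not named) and 1877 are unnamed here. Because 13.6% of values were 0, log2(intensity + 0.0718) was used, the offset being the 10th percentile of the values above 0. Array medians lay 0.76 apart on that scale, so samples were quantile normalized. A test of all 3439 probes used limma 3.58.1 under R 4.3.3 (eBayes with trend, two-sided, Benjamini-Hochberg, threshold 0.05, no filter). Figures were drawn with matplotlib 3.10.9. The 5 genes and the gene lists were chosen with earlier results of these data known. The text names the 5 genes, each listed pathway gene with a probe of its own, and the 3 genes most like each enzyme. Lists of 5 root and 5 seed markers had no such probe, so organ was not checked.

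Deviations of same-numbered samples in the 2 groups correlated across probes at 0.174 to 0.390, so the numbers pair the samples; this comes from the data. Adjacent numbers correlated within a group as well, at 0.121 to 0.309, and the samples may not be independent, which would make SE and p too small. The alternatives were other scalings, another offset, zeros as missing, a filter on dim probes, a replicate block, averages of adjacent numbers, and samples left out.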

Additional observations from a re-analysis of the deposited data

Results flagged for a closer look

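Among 16 sets of 6 deposited intensities (1 gene in 1 group, SBPASE left out), 3 had a value set well apart from the rest; about 0.8 would be so by chance. The gap to the nearest sample is given as a share of the set's whole range. SBPASE had its 1 value above 0 in sample 1 with sucrose, so its gap is the range by construction (1) and is not counted. ATSPS4F was highest in sample 1 with sucrose, at a gap of 0.733. AT1G06730 was lowest in water sample 3, at a gap of 0.631, and was lowest in sample 3 with sucrose as well. NTRC was highest in water sample 6, at a gap of 0.639.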

How the results depend on the processing

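Among the scalings, AT1G06730 ran from 1.26 to 1.93. The replicate block and the averages change errors and not the differences. SBPASE, listed at 0, was given no difference. On the deposited scale AT5G58330 was at 1.498 and ATSPS4F at 0.61. Median centring gave PRK 0.24 and ATSPS4F -0.058, and without numbers 5 and 6 PRK was at 1.004. Leaving out 1 sample at a time gave 0.74 to 0.85 for PRK, 0.78 to 1.07 for AT5G58330, 0.11 to 0.29 for ATSPS4F and 1.36 to 1.93 for AT1G06730.

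Over all probes, 1289 were called, 1316 with the number as a replicate block, 751 with adjacent numbers averaged, 556 with a replicate block on these averages, and 1138 to 1283 with 1 sample left out. Quantile normalization called 624 higher and 665 lower, the deposited scale 1519 and 237, and median centring 487 and 1271. Of the 4 other pathway genes, 1 was called, against 3 on the deposited scale, 3 under median centring, 0 by limma with a replicate block on averages (1 at an unadjusted p under 0.05), and 1 to 2 with 1 sample left out; the second is NTRC, without sample 4 with sucrose. AT1G17160 changed sign on the deposited scale (0.021), and AT1G50390 there (0.37), with 1 sample left out (from -0.14 to 0.014, 0.014 being without sample 5 with sucrose), without number 5 of both groups (0.012) and without numbers 5 and 6 (0.080). The replicate block on the 12 samples changed no call among the pathway genes. The cause of these changes was not tested. The fits without whole numbers and the block on averages were chosen after seeing the data. Dim probes such as those of AT5G58330 and NTRC in water lie near the offset, which limits their differences. The lowest value of AT2G04700, 0.0424 in sample 5 with sucrose, is under the offset.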

Other observations

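The 3 genes whose within-group deviations were most like those of PRK differed between the groups in the direction opposite to PRK. AT5G66090 was at -0.73 (SE 0.14), AT2G46220 at -0.79 (SE 0.09) and AT2G22890 at -1.09 (SE 0.11), where PRK was at 0.80 (SE 0.10). This did not hold for the other enzymes. The genes most like AT5G58330 were at 0.11 (AT1G12100), 0.55 (AT3G29410) and -0.55 (AT1G73430), where AT5G58330 was at 0.93. Those most like ATSPS4F, itself at 0.22, were at -0.37 (AGL26), 1.82 (AT1G13990) and -0.69 (AT4G22370). For AT1G06730, at 1.54, all went in its own direction, at 0.35 (AT2G25870), 0.38 (AT4G32060) and 0.57 (AT5G27860). These are normalized log2 differences of genes picked after the fact by a ranking of 573 genes, and no test was made of the contrast in direction.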
